A study of Danio rerio with 6 samples.

Results

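Integrin subunit genes were followed in the RNA of sorted endothelial cells of zebrafish at 48 hpf (hours post fertilization), in 3 groups that differ in hhex, the gene of a homeobox transcription factor. The members are all genes of the deposited table whose symbol starts with itga or itgb and does not contain bp, which gave 34 of 31701 genes, 22 of them alpha and 12 beta genes. The one gene left out because of bp is itgb1bp1, which encodes a cytoplasmic protein that binds an integrin tail. Of the 34 members, 31 reached a mean value of 5 across the 6 libraries and were tested, among 20900 genes tested in all. The other 3 are itga11b, itgb6 and a second gene identifier named itga6a, which was at 0 in all 6 libraries.

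Each group had 2 libraries. The overexpression embryos carried Tg(kdrl:EGFP) and Tg(fli1a:tdTomato-2A-hhex), so that hhex was driven from the fli1a promoter in vascular cells beside the embryo's own hhex. Their cells were sorted for both EGFP and tdTomato. The hhex mutants and their siblings carried Tg(kdrl:EGFP) alone and were sorted for EGFP, so that the sorting gate as well as the genotype separates overexpression from the other groups, and the effects of gate and genotype cannot be told apart. Mutants were recognized by the absence and siblings by the presence of parachordal lymphangioblasts, the precursors of the trunk lymphatics, and the siblings, labelled wild type, can carry the mutation on 1 chromosome. All groups had the AB background. The mutant allele was hhex s722, an in-frame deletion in the DNA-binding homeodomain. The number of embryos behind a library is not given in the sources used here, so that the p-values measure only the spread between these libraries, which may be technical.

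Integrins are receptors that hold cells to the extracellular matrix and to other cells. Each is a pair of an alpha and a beta chain, and the pair decides which ligand is bound: collagens, laminins, matrix proteins with an RGD (arginine-glycine-aspartate) motif such as fibronectin and vitronectin, or, on leukocytes and thrombocytes, cell surface and plasma proteins. The beta tail inside the cell is bound by talin and kindlin, which switch the receptor on and connect it to actin. In vessels, β1 integrins anchor endothelial cells to the laminin and collagen of the basement membrane, and in mice integrin α9 is required for lymphatic valves.

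The values are normalized read numbers, that is the reads on a gene divided by a size factor of the library and rounded. They summed to between 19133058 and 23381023 per library, and 1 read was worth 0.8102 to 1.096 units. A level is not corrected for gene length, so that levels are compared between libraries and not between genes. Pairs of values are given in the order of replicate 1 and replicate 2. hhex itself was at 764 and 925 in the overexpression libraries, at 613 and 1157 in the mutant libraries and at 204 and 279 in the sibling libraries, the last being the lowest. The s722 deletion is in frame, so the RNA level does not check the mutant label. All 10 endothelial markers examined were present in every library. Their summed value was 37097 and 32124 in overexpression, 11604 and 32249 in mutants and 15688 and 26127 in siblings. Overexpression was thus above both siblings, whereas mutant replicate 1 lay below and mutant replicate 2 above both siblings. In bulk RNA, fewer cells of a type and less RNA per cell cannot be told apart.

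The question of the first comparison is what raised hhex goes with in endothelial cells. Between overexpression and siblings, most matrix receptor subunits were higher as deposited and most blood cell subunits lower, but no single member passed the test over all genes. At an adjusted p of 0.05 (limma on log2(value + 1), Benjamini-Hochberg adjustment over all 20900 genes), 0 of 31 members passed, with 0.00% of all genes called. At an unadjusted p under 0.05, 4 members were higher (6.23% of all genes) and 5 were lower (8.77% of all genes). The libraries of the groups did not overlap for 14 of 31 members with overexpression higher (45.2%, against 26.9% of all genes) and for 7 with overexpression lower (22.6%, against 27.0% of all genes). The median log2 fold change of the 31 members was 0.48, beside 0.022 over all genes, and 21 of 31 were above 0. These fold changes are on the log2(value + 1) scale, which understates the change of low genes. The 10 endothelial markers were higher too, with 10 of 10 not overlapping and a median of 0.89. The libraries were also rescaled to the mean log2 level of these markers, which left 7 of 31 members above 0 (itga1, itga11a, itga2.3, itga6b, itgb3a, itgb4 and itgb5), with a median of −0.36 for the members and of −0.82 for all genes. Among the 7, itga1 (0.10), itgb4 (0.076) and itgb5 (0.053) were then only slightly above 0. With 2 libraries against 2, an exact permutation test of 1 gene cannot give a two-sided p under 0.333.

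**Figure D1:**
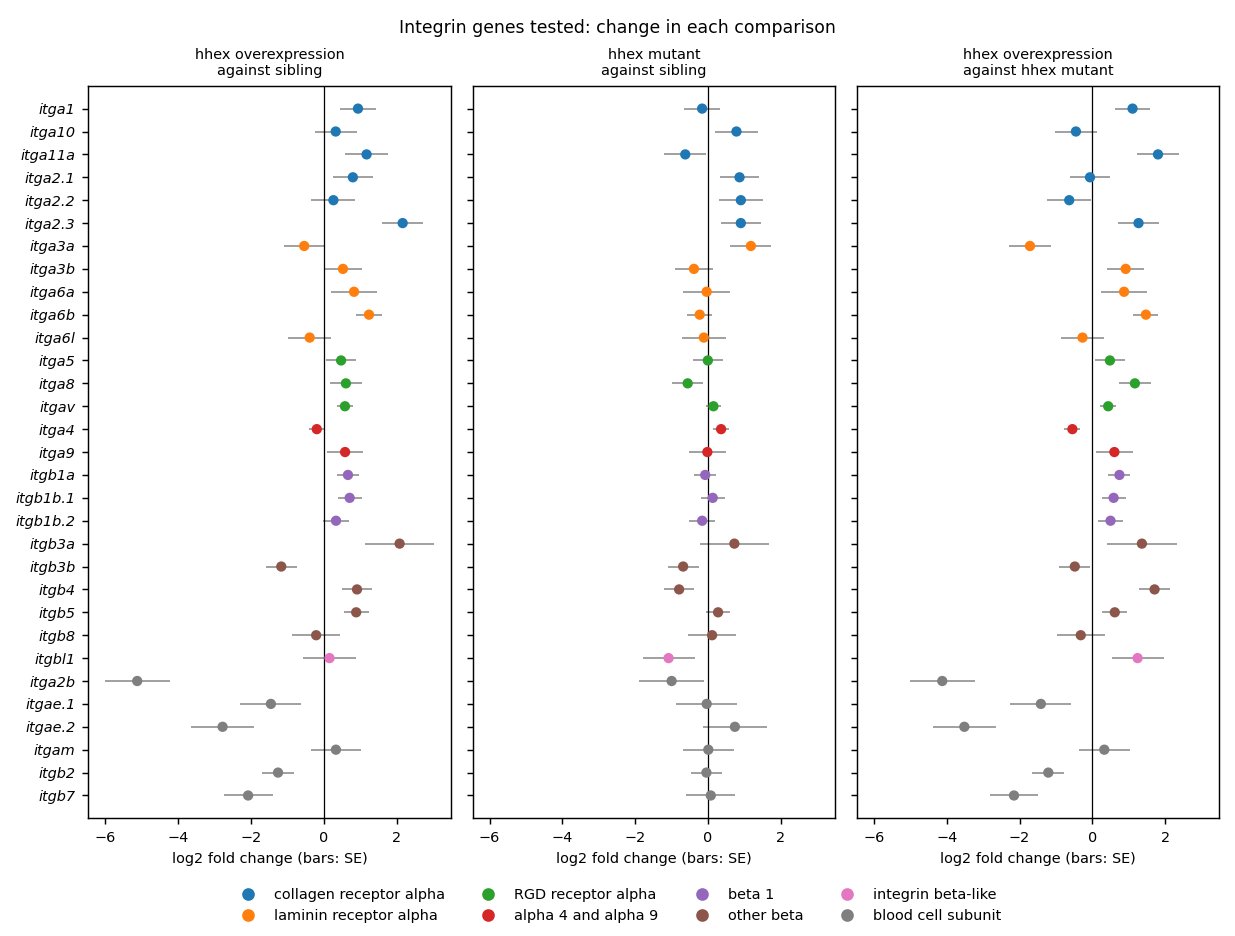
Log2 fold change (x axis, on the log2(value + 1) scale) of the 31 integrin genes tested, with overexpression against siblings on the left, mutants against siblings in the middle and overexpression against mutants on the right. Points are limma estimates from 2 libraries per group, bars are SEs and colours give the ligand class. In the left panel 21 of 31 points lie above 0, and the lowest point is itga2b at −5.12. After rescaling to endothelial markers, which put the median of all genes at −0.82, 7 of 31 are above 0.

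Among the collagen receptor chains, itga1 and itga2.3 were higher in overexpression. itga1 (ENSDARG00000074316), the chain of the α1β1 receptor for basement membrane collagen, was at 4037 and 2471 in overexpression, against 1345 and 2009 in siblings. The libraries did not overlap, and the log2 fold change was 0.94 (standard error, SE, 0.49, adjusted p = 0.387). itga2.3 (ENSDARG00000086838), 1 of 3 zebrafish counterparts of the collagen receptor chain α2, was at 164 and 156 in overexpression and at 20 and 60 in siblings. Its log2 difference of 2.17 (SE 0.56, adjusted p = 0.212) is a 4.50-fold difference, the largest upward one among the members with a mean of at least 50. When 1 library was left out, the change of itga1 was at its lowest, 0.59, without overexpression replicate 1, and that of itga2.3, 1.4, without sibling replicate 1. itga11a, a receptor chain for fibrillar collagen, was at 57 and 41 in overexpression against 27 and 16 in siblings.

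All 6 collagen receptor chains tested were above 0 in this comparison, with a median of 0.87, and 3 of them (itga1, itga11a and itga2.3) were also above 0 after the rescaling to endothelial markers. In 4 of the 6 the libraries did not overlap (26.9% of all genes higher), which is a description, since the ligand classes were drawn with the values known. itga10 and itga2.2 were the exceptions, at 0.33 and 0.27 on the log2 scale, and the untested itga11b had 3 and 10 in overexpression, against 1 and 0 in siblings. The rise was not particular to overexpression. Between mutants and siblings the 6 chains had a median of 0.82, with 4 above 0. Between overexpression and mutants 3 of the 6 were above 0. Of these genes, itga1 (8897429 to 9010179), itga2.1 (9013474 to 9024646), itga2.3 (9035909 to 9050646) and itga2.2 (9052210 to 9108717) stand side by side on the plus strand of chromosome 10 (GRCz10), with 3294, 11262 and 1563 bases between them. Reads that align to several places had been left out by the authors, so that stretches alike between the α2 copies count for none of them, and itga2.3 and its neighbours are uncertain to that extent.

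The laminin receptor chains were divided. itga6b (ENSDARG00000069946, chromosome 1, 30215219 to 30260789, plus strand), a copy of the α6 chain that pairs with β1 in vessels and with β4 in epidermis, was at 947 and 761 in overexpression and at 300 and 427 in siblings. This is a log2 fold change of 1.24 (SE 0.34, adjusted p = 0.229, 95% interval 0.45 to 2.04), or 2.37-fold. The other copy, itga6a (ENSDARG00000042282), was at 164 and 140 in overexpression and at 77 and 93 in siblings (log2 change 0.83, SE 0.64, adjusted p = 0.539), and was at −0.0059 on the log2 scale after the rescaling to endothelial markers. itga3a, an α3 copy, went the other way, with 29 and 33 in overexpression, against 38 and 54 in siblings (−0.54, SE 0.57, adjusted p = 0.660). The remaining itga3b and itga6l had overlapping libraries. The second identifier of itga6a lies within the first on the same strand (chromosome 9, from 3458133), and reads over both genes had been left out, so the level of itga6a rests on the part that the models do not share.

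All 3 alpha chains of the RGD receptors were above 0 as deposited. After the rescaling to endothelial markers all 3 were below 0, with a median of −0.26 beside −0.82 for all genes. itgav (ENSDARG00000006314), the αv chain, which binds vitronectin and fibronectin and pairs with several beta chains, was at 597 and 667 in overexpression, against 384 and 461 in siblings. Its log2 fold change was 0.58 (SE 0.22, adjusted p = 0.292), with a 95% interval of 0.083 to 1.08. itga5 (ENSDARG00000006353), the chain of the fibronectin receptor α5β1, was at 1736 and 1330 in overexpression and at 880 and 1353 in siblings. Sibling replicate 2 was above overexpression replicate 2, and the log2 fold change was 0.48 (SE 0.42, adjusted p = 0.589), or 0.17 when sibling replicate 1 was left out. itga8, which pairs with β1 and binds nephronectin, was at 246 and 260 in overexpression, against 126 and 217 in siblings.

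The related α4 and α9 chains differed in direction as deposited, and both were below 0 after the rescaling to endothelial markers (median of all genes −0.82). itga9 (ENSDARG00000032435), a receptor for tenascin and for a splice form of fibronectin, was at 1446 and 1258 in overexpression and at 660 and 1221 in siblings (log2 change 0.59, SE 0.51, adjusted p = 0.582). itga4 (ENSDARG00000103056), which binds VCAM1 and fibronectin and is used by blood cells and their precursors, was at 977 and 1039 in overexpression, against 991 and 1334 in siblings. The groups overlapped, and the log2 fold change was −0.19 (SE 0.22, adjusted p = 0.693, 95% interval −0.70 to 0.32). Without sibling replicate 2 it was 0.024. Leaving out sibling replicate 1 gave 0.14 for itga9, and leaving out sibling replicate 2 gave 1.03.

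The 3 β1 genes, whose product is the common partner of most chains above, were above 0 as deposited. After the rescaling to endothelial markers they were below 0 (−0.17, −0.13 and −0.50), beside a median of −0.82 for all genes. itgb1a (ENSDARG00000071863) was at 1432 and 1174 in overexpression and at 743 and 898 in siblings (log2 change 0.67, SE 0.30, adjusted p = 0.347). itgb1b.1 was at 1113 and 947 in overexpression and at 616 and 636 in siblings (0.71, SE 0.33, adjusted p = 0.349). itgb1b.2 was at 218 and 142 in overexpression and at 128 and 151 in siblings, with overlapping libraries (0.34, SE 0.35, adjusted p = 0.657). itgb1b.1 (chromosome 2, 43719683 to 43753656) and itgb1b.2 (43719748 to 43733981) overlap on the plus strand, and reads on both had been left out, so their split is uncertain.

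Among the other beta chains, itgb5, itgb4 and itgb3a were higher and itgb3b was lower in overexpression. itgb5, an αv partner, was at 278 and 251 in overexpression against 122 and 165 in siblings (log2 change 0.89, SE 0.34, adjusted p = 0.299). itgb4 (ENSDARG00000028507), the α6 partner of epidermal hemidesmosomes, was at 138 and 158 in overexpression against 110 and 55 in siblings (0.92, SE 0.42, adjusted p = 0.347, and 0.42 on the log2 scale without sibling replicate 2). Epidermal markers were also higher in overexpression than in siblings. The summed value of 9 markers was 34871 and 28802 in overexpression against 13766 and 18548 in siblings. Most of it came from krt8 (28489 and 21760 in overexpression, 9403 and 16102 in siblings). Over the 6 libraries krt8 had the same order as the summed endothelial markers. epcam, an epithelial adhesion molecule, was at 159 and 377 in overexpression against 105 and 58 in siblings. Of the 9 markers, 7 did not overlap with overexpression higher (26.9% of all genes) and 0 with it lower (27.0% of all genes), and 0 were at 0 in any library. Their part in the values of itgb4 and the laminin receptor chains was not tested.

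The β3 copies went in opposite directions. itgb3a was at 23 and 65 in overexpression against 21 and 3 in siblings, which gave 2.08 (SE 0.95, adjusted p = 0.349) from low values, and 0.86 without sibling replicate 2. itgb3b (ENSDARG00000045070) was at 68 and 36 in overexpression, against 117 and 108 in siblings (−1.17, SE 0.43, adjusted p = 0.287). In mammals β3 pairs with αv in endothelial cells and with αIIb, the product of ITGA2B, in platelets. itgb8 had overlapping libraries, as had the untested itgb6 (1 and 10 in overexpression, 10 and 1 in siblings). itgbl1, whose product resembles a beta chain but is no receptor subunit, was at 13 and 21 in overexpression against 12 and 18 in siblings.

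**Figure D2:**
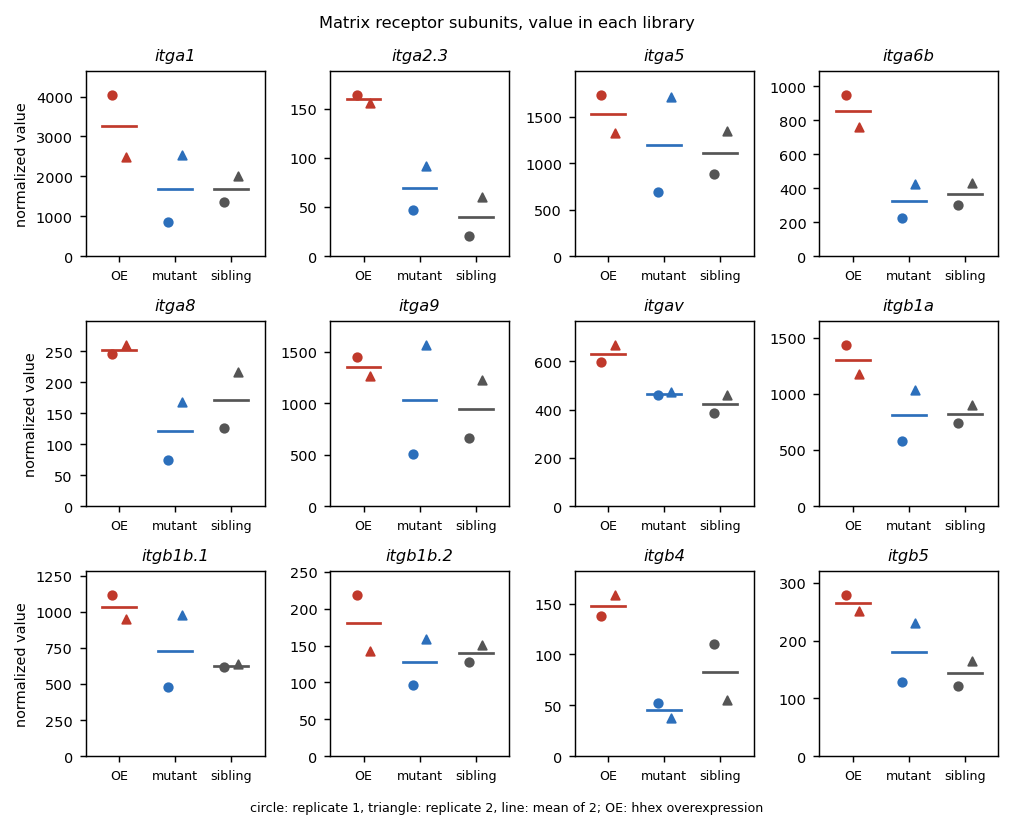
Normalized value (y axis, reads divided by the size factor of the library) of 12 matrix receptor subunit genes in the overexpression (OE), mutant and sibling libraries. Circles are replicate 1, triangles replicate 2 and lines the mean of the 2. As deposited, both overexpression libraries lie above both sibling libraries for all genes shown but itga5 and itgb1b.2. After rescaling to endothelial markers the fold changes of itga5, itga8, itga9, itgav and the 3 β1 genes are below 0 (median of all genes −0.82). For 6 of the genes shown (itga1, itga5, itga9, itgb1a, itgb1b.1 and itgb1b.2) the mutant libraries lie on either side of both siblings.

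Blood cell subunits were lower in overexpression, and itga2b and itgae.2 had the largest differences of all members in this comparison. itga2b (ENSDARG00000018687, chromosome 3, 21219961 to 21251943, minus strand) encodes αIIb, the fibrinogen receptor chain of thrombocytes, and in zebrafish also marks blood stem cells. It was at 0 and 2 in overexpression, against 88 and 40 in siblings. The log2 fold change was −5.12 (SE 0.89, adjusted p = 0.191). In reads recovered from the values this is 2 against 151, or a ratio of 0.0152 with an exact 95% interval of 0.00182 to 0.0559 that covers counting error only.

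The leukocyte chains followed in the same direction. itgae.2 (ENSDARG00000057787), a counterpart of the αE chain of mucosal lymphocytes, was at 22 and 194 in overexpression and at 599 and 351 in siblings (log2 change −2.78, SE 0.87, adjusted p = 0.252). itgb7, the partner of αE and α4 on mammalian lymphocytes, was at 10 and 45 in overexpression and at 105 and 84 in siblings (−2.08, SE 0.67, adjusted p = 0.256). itgb2 (ENSDARG00000016939), the shared beta chain of leukocyte integrins, was at 141 and 373 in overexpression and at 544 and 554 in siblings (−1.25, SE 0.43, adjusted p = 0.272). itgae.1 was at 4 and 14 in overexpression against 32 and 16 in siblings. It overlaps itgae.2 on the minus strand of chromosome 15, and reads on both had been left out, so the levels of both are uncertain to that extent. The exception was itgam, the myeloid αM chain, at 19 and 38 in overexpression against 13 and 34 in siblings. In all, 5 of the 6 blood cell chains did not overlap and were lower (27.0% of all genes) and 0 were higher (26.9% of all genes), and the median was −1.76 (−2.60 after the rescaling to endothelial markers, with 0 of 6 above 0). This class was drawn with the values known, so the count is a description. Overexpression replicate 2 was above replicate 1 for 6 of 6. Without overexpression replicate 1 the log2 fold change was −1.24 for itgae.2, −1.05 for itgb7 and −0.56 for itgb2, and without replicate 2 it was −4.32, −3.11 and −1.95 for these genes.

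Most markers of thrombocytes and blood stem cells were lower in overexpression too, whereas the myeloid markers were divided. Blood stem cells arise from the wall of the dorsal aorta at about this stage. Of 8 thrombocyte and blood stem cell markers, 6 did not overlap and were lower in overexpression (27.0% of all genes) and 0 were higher (26.9% of all genes). Their median log2 fold change was −2.10. Their summed value was 3611 and 3478 in overexpression against 5801 and 4105 in siblings. In overexpression most of it came from f13a1b and thbs1b (the second also on the ligand list used here). These genes were not lower in overexpression, with log2 fold changes of 0.25 and 0.30 and overlapping libraries. myb, a transcription factor of blood stem cells, was at 127 and 262 in overexpression against 1836 and 1270 in siblings. gp1bb, a thrombocyte receptor chain, was at 8 and 13 in overexpression against 49 and 44 in siblings.

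The 9 myeloid markers summed to 992 and 8850 in overexpression, against 8040 and 8566 in siblings, so that overexpression replicate 1 stood apart. Of these, 2 were lower (27.0% of all genes) and 2 higher (26.9% of all genes) without overlap. The pan-leukocyte genes lcp1 and coro1a were lower, and the macrophage-associated mpeg1.1 and mfap4 were higher, all 4 with an adjusted p of 0.219 or above. The 9 erythroid markers summed to 4063 and 3213 in overexpression, against 5605 and 3677 in siblings. Without overlap 4 of 9 were lower and 0 higher, against the same shares of all genes. No marker of the 3 blood lists was at 0 in any library. Their part in the lower blood cell subunits was not tested.

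**Figure D3:**
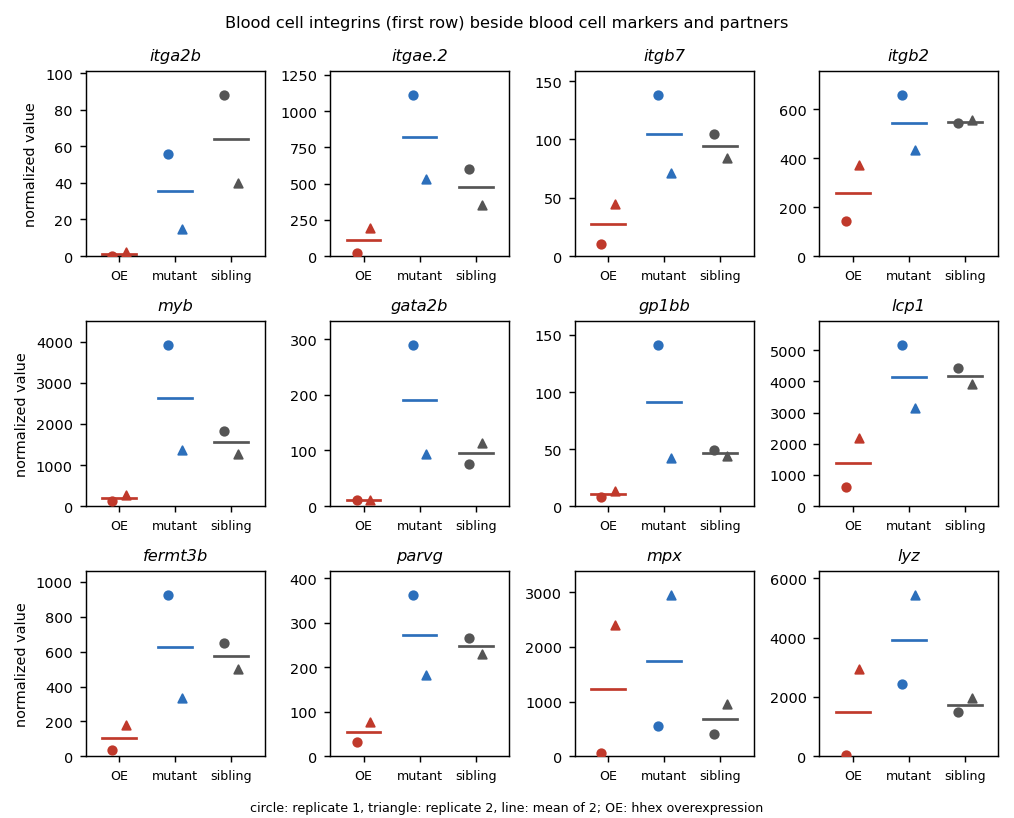
Normalized value (y axis) in the overexpression (OE), mutant and sibling libraries of 4 blood cell integrin genes (first row), and of markers and partners of blood cells (lower rows). Circles are replicate 1, triangles replicate 2 and lines the mean of the 2. itga2b is at 0 and 2 in overexpression, and mpx and lyz differ widely between the overexpression replicates (60 and 2395 for mpx).

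Ligands of integrins were compared in the same fit. Of 39 ligand genes measured, 35 were tested, of which 0 passed the adjusted p and 31 were above 0. At an unadjusted p under 0.05, 10 were higher (6.23% of all genes) and 0 lower (8.77% of all genes). Libraries did not overlap for 20 with overexpression higher (26.9% of all genes) and for 2 with it lower (27.0% of all genes). The median log2 fold change of the ligands was 0.64. After the rescaling to endothelial markers 14 of 35 were above 0 and the median was −0.20, beside −0.82 for all genes. Basement membrane genes were among the higher ones. lama4, the α4 chain of endothelial laminin, was at 4938 and 3601 in overexpression against 1446 and 1999 in siblings, and col4a1, a collagen IV chain, at 11075 and 8189 in overexpression against 3262 and 5987 in siblings. nid2a, a nidogen that ties laminin to collagen IV, was at 519 and 454 in overexpression against 184 and 228 in siblings. Other basement membrane genes were not higher. The laminin gene lama5 was at 549 and 668 in overexpression against 687 and 681 in siblings. Libraries overlapped for nid1b (5670 and 5445 in overexpression, 3225 and 5469 in siblings). The 2 ligands lower without overlap were lama5 and fgb (3 and 6 in overexpression, 23 and 17 in siblings). emilin1b, of the elastic fibre glycoprotein Emilin1, was at 419 and 391 in overexpression against 106 and 170 in siblings (log2 change 1.58, SE 0.37, adjusted p = 0.195). fn1a, a fibronectin gene, had 4798 and 4682 in overexpression against 3343 and 4136 in siblings (0.35 on the log2 scale).

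Cytoplasmic and membrane partners showed no shift of that size. Of 41 tested, 0 passed the adjusted p and 23 were above 0 (5 after the rescaling to endothelial markers), with a median of 0.11. At an unadjusted p under 0.05, 2 were higher (6.23% of all genes) and 2 lower (8.77% of all genes). Libraries did not overlap for 17 with overexpression higher (26.9% of all genes) and for 10 with it lower (27.0% of all genes). tln1, the main talin, had similar values in the groups, with 5204 and 5589 in overexpression and 4889 and 5505 in siblings. The kindlin genes fermt2 and fermt3b went in opposite directions. A further kindlin gene, fermt1, had overlapping libraries, with 19 and 44 in overexpression against 21 and 34 in siblings (log2 change 0.11). fermt2, the kindlin of adherent cells, was at 1356 and 1133 in overexpression against 629 and 864 in siblings. fermt3b, of the blood cell kindlin, was at 34 and 179 in overexpression against 650 and 499 in siblings (log2 change −2.85, SE 0.74, adjusted p = 0.212). parvg, a parvin of blood cells, was at 32 and 78 in overexpression against 266 and 229 in siblings (−2.28, SE 0.48, adjusted p = 0.191).

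**Figure D4:**
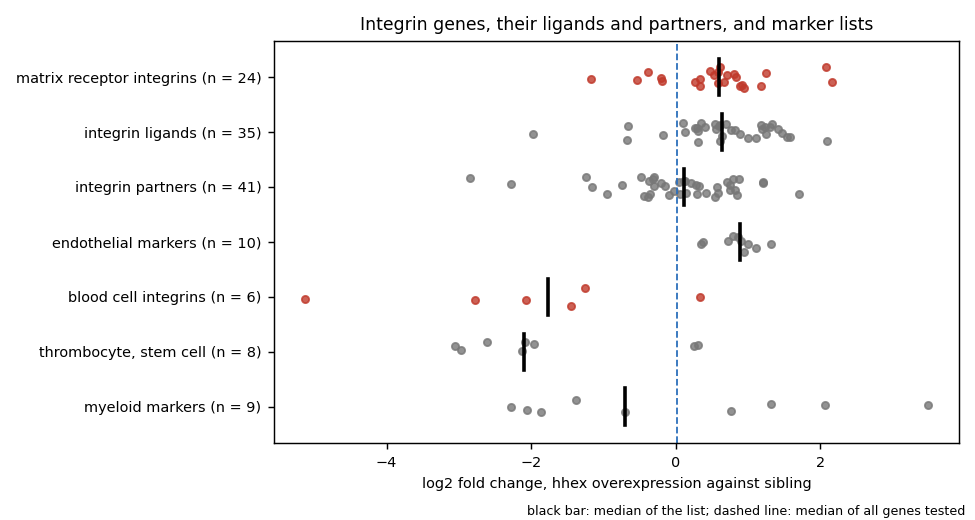
Log2 fold change (x axis) of each tested gene between overexpression and siblings, for the matrix receptor and blood cell integrin genes (red) and for ligands, partners and marker lists (grey). Black bars are list medians and the dashed line is the median of all genes tested, 0.022. The ligand median is 0.64 (−0.20 after rescaling to endothelial markers, beside −0.82 for all genes) and the endothelial marker median 0.89. Blood cell integrins and thrombocyte and stem cell markers have medians of −1.76 and −2.10.

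In the fit of only the 4 overexpression and sibling libraries, 3 members passed the adjusted p: itga2.3 (0.0424) and itga6b (0.0229) were higher (1.88% of all genes called) and itga2b (0.0188) was lower (2.15% of all genes called). Relative to all genes, the members had a median of 0.20 when sibling replicate 1 was left out and of 0.72 when sibling replicate 2 was.

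The second comparison asks what loss of hhex function goes with. Between mutants and siblings 0 of 31 members passed the adjusted p (0.00% of all genes). At an unadjusted p under 0.05, 0 members were higher (1.23% of all genes) and 0 lower (2.17% of all genes). The median of the members was −0.019 beside −0.010 over all genes, and 14 of 31 were above 0. Libraries did not overlap for 4 members with mutants higher (13.3% of all genes) and for 3 with mutants lower (13.4% of all genes), so that the members lay close to the background in both directions.

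By class, the 6 collagen receptor chains tested had a median of 0.82 in this comparison, with 4 above 0. The 4 members higher without overlap were itga3a, itga4, itga2.1 and itga10. itga3a, a laminin receptor chain, was at 185 and 58 in mutants against 38 and 54 in siblings, a log2 fold change of 1.18 (SE 0.57, adjusted p = 1.0) that was 0.35 without mutant replicate 1. itga4 was at 1387 and 1567 in mutants against 991 and 1334 in siblings (0.36, SE 0.22, adjusted p = 1.0), with a 95% interval of −0.16 to 0.87. The 3 lower ones were itgb4, itgb3b and itgbl1. itgb4 was at 52 and 38 in mutants against 110 and 55 in siblings (−0.79, SE 0.42, adjusted p = 1.0), and itgb3b at 88 and 55 in mutants against 117 and 108 in siblings (−0.68, SE 0.43, adjusted p = 1.0). Without sibling replicate 1 the change of itgb4 was −0.30.

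Markers of some other cell types also differed between these groups. Of the 10 skeletal muscle markers, 9 were lower in mutants without overlap (13.4% of all genes) and 9 were lower at an unadjusted p under 0.05 (2.17% of all genes). Their median was −1.69, with sums of 12474 and 6959 in mutants against 36222 and 24445 in siblings. The thrombocyte and blood stem cell markers had a median of 0.66, with sums of 8267 and 5826 in mutants against 5801 and 4105 in siblings. Of these 8, 2 were higher (13.3% of all genes) and 0 lower (13.4% of all genes) without overlap. The 9 epidermal markers, set beside itgb4 above, had a median of −0.047, with 1 higher and 0 lower without overlap. The part of these 3 lists in the values of the members was not tested.

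The mutant libraries lay far apart. For 7 of 31 members (itga1, itga5, itga6a, itga9, itgb1a, itgb1b.1 and itgb1b.2) mutant replicate 1 was below and replicate 2 above both siblings, against 11.9% of all genes. The opposite order was found for 4 (itgae.1, itgb2, itgb7 and itgb8), against 12.2% of all genes. itga9 illustrates the first, with 503 and 1561 in mutants against 660 and 1221 in siblings. The summed endothelial markers had the order of these 7 members. Without mutant replicate 1 the median of the members relative to all genes was 0.20, and without mutant replicate 2 it was −0.30. Ligands (17 of 35 above 0, median −0.018) and partners (13 of 41 above 0, median −0.31) also had 0 genes past the adjusted p. At an unadjusted p under 0.05, 1 ligand was higher (1.23% of all genes), and 1 ligand and 2 partners were lower (2.17% of all genes).

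The third comparison sets overexpression against mutants, the group with added hhex against the group with mutated hhex. It shares the overexpression libraries with the first and the mutant libraries with the second, so that it is no independent evidence. No member passed the adjusted p (0 of 31, 0.00% of all genes). At an unadjusted p under 0.05, 5 members were higher (8.68% of all genes) and 6 lower (8.90% of all genes). Libraries did not overlap for 10 with overexpression higher (24.1% of all genes) and for 7 with it lower (24.6% of all genes). The median was 0.48 beside 0.020 over all genes, and 18 of 31 were above 0. After the rescaling to endothelial markers 9 of 31 were above 0, with a median of −0.43 beside −0.89 for all genes.

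By size, the higher members with a mean of at least 50 were led by itgb4, at 138 and 158 in overexpression against 52 and 38 in mutants (log2 change 1.71, SE 0.42, adjusted p = 0.153). itga6b was at 947 and 761 in overexpression against 221 and 422 in mutants (1.47, SE 0.34, adjusted p = 0.148). itga2.3 had 164 and 156 in overexpression against 47 and 92 in mutants (1.27, SE 0.56, adjusted p = 0.288). itga8 was at 246 and 260 in overexpression against 74 and 169 in mutants (1.17, SE 0.43, adjusted p = 0.240). The epidermal markers summed to 34871 and 28802 in overexpression against 9727 and 23845 in mutants. Most of this came from krt8 (28489 and 21760 in overexpression, 6596 and 21774 in mutants). Of the 9 markers, 5 were higher (24.1% of all genes) and 0 lower (24.6% of all genes) without overlap, and their part in itgb4 was not tested. These 4 integrin genes stayed above 0 after the rescaling to endothelial markers. itgb1a (0.74, SE 0.30, adjusted p = 0.265) did not, with −0.17 beside a median of −0.89 for all genes after that rescaling.

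The lower members with a mean of at least 50 were led by itgae.2, at 22 and 194 in overexpression against 1110 and 528 in mutants (log2 change −3.52, SE 0.87, adjusted p = 0.155). itgb7 was at 10 and 45 in overexpression against 138 and 71 in mutants (−2.15, SE 0.67, adjusted p = 0.196). itga3a had 29 and 33 in overexpression against 185 and 58 in mutants (−1.71, SE 0.57, adjusted p = 0.207). itgb2 (−1.21, SE 0.43, adjusted p = 0.231) and itga4 (−0.55, SE 0.22, adjusted p = 0.265) followed. Without overexpression replicate 1 the changes were −1.98 for itgae.2, −1.12 for itgb7 and −0.51 for itgb2, and without mutant replicate 1 that of itga3a was −0.89. The lower-level itga2b, at 0 and 2 in overexpression against 56 and 15 in mutants, had a log2 change of −4.12 (SE 0.89, adjusted p = 0.138). Its ratio in reads was 0.0274 (2 against 71, exact 95% interval 0.00326 to 0.103, counting error only). The blood stem cell marker myb was at 127 and 262 in overexpression against 3918 and 1362 in mutants. Without overlap, 7 of the 8 thrombocyte and blood stem cell markers were lower (24.6% of all genes) and 1 was higher (24.1% of all genes). Their sum was 3611 and 3478 in overexpression against 8267 and 5826 in mutants, and that of the myeloid markers 992 and 8850 in overexpression against 10653 and 12955 in mutants. Their part in these values was not tested.

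The median of the members in this comparison depended on which mutant library was kept. Without mutant replicate 2 it was 0.73, beside −0.0038 over all genes. Without mutant replicate 1 it was −0.070, beside −0.019 over all genes, or −0.051 relative to all genes. Of the ligands, 32 of 35 were above 0 with a median of 0.73. After the rescaling to endothelial markers, which put the median of all genes at −0.89, 11 of 35 were above 0. Of the partners, 27 of 41 were above 0 with a median of 0.30 (10 of 41 after that rescaling), and 0 genes of either list passed the adjusted p. At an unadjusted p under 0.05, 9 ligands and 11 partners were higher (8.68% of all genes), and 0 ligands and 2 partners were lower (8.90% of all genes).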

How the data were processed

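RNA of FACS-sorted endothelial cells was sequenced by the authors from low-input total RNA with a stranded kit, trimmed with Reaper, aligned with STAR 2.4.0a to GRCz10 and counted per gene with featureCounts 1.4.5-p1 (reads that touch an exon, leaving out those shared by genes or aligned more than once). The strand setting of the counting is not given in the sources used here. The deposited signal is the read number divided by a size factor per library by the authors with DESeq2 and rounded. It is not a raw count. In some libraries 1 value can hold more than 1 read number, so no count model was used. From the frequency of each low value, 1 read was estimated to be worth 0.8102 to 1.096 units, which gives 19649746 to 23615228 reads on genes per library.

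Samples were grouped by their titles. For genes whose mean reached 5, log2(value + 1) was fitted with limma 3.58.1 (R 4.3.3, mean trend, robust estimation), all 6 libraries in one fit, with Benjamini-Hochberg adjustment over 20900 genes. A gene did not overlap where both libraries of 1 group lay beyond both of the other. The code of the fit was checked on simulated data with large planted changes and less spread than most members had. Its power for changes of the size seen here was not tested. Fold changes are named for the 5 highest and the 5 lowest members among those with a mean of at least 50 and no overlap, and for a set with vascular, blood or epidermal roles in which itgb1b stands for itgb1b.1 and itgb1b.2. itga8 and itga11a against siblings, itga2b against mutants and the list genes named were chosen after their values were seen, as were the ligand classes. The members and lists were chosen with earlier results of these data known. Of the identifiers of the 34 members 33 matched a table of gene names, and 1 further gene carries an integrin name (itgam.1) only in that table. Marker lists of skeletal muscle, neural, and mesenchyme and neural crest cells were also summed. Alternatives were other pseudocounts and filters, the 4 libraries compared, a replicate block, quantile scaling, rescaling to endothelial markers, library weights, an adjusted p of 0.1 and each library left out.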

Additional observations from a re-analysis of the deposited data

How the results depend on the processing

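Of 34 fold changes of single genes, 25 kept their direction in every one of the 16 alternatives that gave them a value. The number of members past the adjusted p between overexpression and siblings was 0 in the main fit. It became 3 with only the 4 libraries compared (itga2.3, itga2b and itga6b), with 841 of 20900 genes called. Only itga2b passed with rescaling to endothelial markers (42 of 20900 genes called) and with library weights (59 of 20900 genes called). The number also rose when either mutant library was left out. Those fits have a single mutant library, so their counts are not given. Between overexpression and mutants the number was 0. With both libraries of each group kept, it became 2 only with rescaling to endothelial markers (itga2b and itgae.2), with 82 of 20900 genes called. It also rose without mutant replicate 2, but that fit has a single mutant library, so its count is not given. Between mutants and siblings the number of members stayed at 0. The median of the members relative to all genes ranged, with each library left out, from 0.20 to 0.72 between overexpression and siblings (0.46 with all libraries), from −0.30 to 0.20 between mutants and siblings and from −0.051 to 0.73 between overexpression and mutants. Rescaling to endothelial markers turned 7 genes between overexpression and siblings (itga5 −0.36, itga6a −0.0059, itga9 −0.25, itgav −0.26, itgb1a −0.17, itgb1b.1 −0.13 and itgb1b.2 −0.50) and itgb1a between overexpression and mutants (−0.17), since it lowers all genes of a comparison alike. The median of all genes was then −0.82 between overexpression and siblings and −0.89 between overexpression and mutants. Leaving out sibling replicate 2 turned itga4 (0.024, in a range from −0.40). With the replicate number as a block, 0 members and 0 genes passed in each comparison. Deviations of libraries with the same number correlated at −0.034, 0.22 and −0.049 in the 3 comparisons, and since the labels tie no number to a batch or clutch and there are only 2 pairs, a pairing was not assumed. Values of under 10 reads, such as itga2b in overexpression, are limited by counting.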

Other observations

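Markers of muscle, neural and mesenchymal cells were summed as the blood markers were. The 10 skeletal muscle markers summed to 6954 and 18894 in overexpression, 12474 and 6959 in mutants and 36222 and 24445 in siblings. Against siblings 8 of 10 did not overlap and were lower in overexpression (27.0% of all genes, median −1.24). In mutants 9 of 10 were lower without overlap (13.4% of all genes, median −1.69). The neural markers summed to 1742 and 1352 in overexpression, 1179 and 305 in mutants and 1237 and 658 in siblings, and the markers of mesenchyme and neural crest to 1459 and 3503 in overexpression, 1717 and 561 in mutants and 1483 and 1817 in siblings.

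A further gene that the table calls si:dkey-32n7.4 carries the name itgam.1 in a table of gene names, and lies outside the rule. It was at 48 and 134 in overexpression, at 45 and 161 in mutants and at 49 and 59 in siblings.

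By chromosome, 7 of the 34 members lie on chromosome 9 (itga4, both identifiers of itga6a, itgav, itgb2, itgb5 and itgbl1) and 4 on chromosome 10, as the deposited table places them.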
